A study of Mus musculus with 5 samples.

Results

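Among the 9135 Runx3-bound regions called in IL-2-activated mouse CD8-TC (CD8+ T cells), 1392 (15.2%, 95% Wilson interval 14.5 to 15.99%) were H3K4me1-marked and lay inside a protein-coding gene at some distance from any promoter. They are the regions whose centre was 5 kb to under 50 kb from the nearest annotated transcript start, fell in the body of a protein-coding gene of GENCODE vM1 on mm9, and which shared at least 1 bp with an H3K4me1 region. Regions in groups of 3 or more Runx3-bound regions, with neighbouring centres chained within 10 kb, were left out, which removed 226 regions that met the other criteria. These marked intragenic regions are called members here. The rule used position and overlap. Distance from a start, location in a gene body, overlap with H3K4me1 and having at most 1 other Runx3-bound region nearby are therefore not findings. Sequence and strand were not used by it. Width, place along the gene and the identity of the host genes were not criteria either. The criteria of overlap, distance and gene body nevertheless bear on them.

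Runx3 is a transcription factor of the RUNX family, which binds DNA through its Runt domain together with the partner subunit Cbfb, and in the CD8 lineage it is known for silencing Cd4 and for supporting the cytotoxic program. H3K4me1, monomethylated lysine of histone H3, marks enhancers, both poised and active. Enhancers often lie in introns, either of the gene that they control or of a neighbour, and a called region does not say which gene it acts on.

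CD8-TC were isolated with anti-CD8 beads from spleens of WT ICR mice, TCR-activated for 2 days with anti-CD3e and anti-CD28 and kept for 4 more days in 100 u/ml IL-2, so that all libraries share genotype, activation and culture. Age and the number of animals are not given in the sources used here. ChIP-seq libraries numbered 2 for anti-Runx3 antibody, 1 for anti-H3K4me1 antibody and 2 for the NIS (serum of non-immunised animals) control (the labels speak of repeats for both antibodies, but 1 H3K4me1 library is listed), and the deposited lists held 9135 Runx3 and 18992 H3K4me1 regions. Repeats were joined before the authors called peaks and the lists give positions alone, so that no value here has a replicate error, the depth behind a region is unknown, and p-values and intervals describe the spread over regions and not over animals. As a check of cell type, H3K4me1 regions were found in or within 5 kb of 6 of 6 CD8-TC markers (Cd8a, Cd8b1, Cd3e, Cd3d, Cd3g, Lck), 2 of 2 helper markers (Cd4, Zbtb7b), 3 of 5 B cell markers (Cd79a and Pax5 among them), 2 of 5 myeloid or dendritic markers (Itgam, Itgax) and 1 of 3 NK cell markers (Klrb1c). Runx3-bound regions were found by the same measure at 5 of 6 CD8-TC, 2 of 2 helper, 2 of 5 B cell, 1 of 5 myeloid or dendritic and 0 of 3 NK cell markers. Per the paper's methods, nearly all cells were CD8-TC at the end of culture. The part of other cells in the results was not tested.

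The sequence at the centre of 10 members shows what Runx3-bound intronic DNA looked like in genes of different roles. Each stretch is 100 bp of the plus strand of mm9 around the RUNX motif nearest the centre of the region. Capitals mark motifs in either orientation. The RUNX motif is TGTGGT or the same word with C in place of its second T, of its last T or of both of them. The ETS motif is the word AGGAAG or one that starts with C, ends with A or does both. The AP-1 motif is TGACTCA, which reads TGAGTCA on the other strand. The first 8 were chosen as the member with the most central RUNX motif in a gene of each immune gene list. The last 2 are further members, besides these 8, in genes of the lists. They have a RUNX motif near the centre and an AP-1 motif, or a RUNX and an ETS motif within 50 bp.
Vav3, chr3:109190400-109190499: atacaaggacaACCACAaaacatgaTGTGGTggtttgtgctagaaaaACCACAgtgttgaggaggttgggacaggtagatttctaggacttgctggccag
Il12rb2, chr6:67298173-67298272: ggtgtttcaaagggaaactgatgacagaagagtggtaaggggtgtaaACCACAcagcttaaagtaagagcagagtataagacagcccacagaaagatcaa
Bach2, chr4:32475066-32475165: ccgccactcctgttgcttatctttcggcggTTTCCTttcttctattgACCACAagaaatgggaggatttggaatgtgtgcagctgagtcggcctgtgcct
Slamf1, chr1:173719644-173719743: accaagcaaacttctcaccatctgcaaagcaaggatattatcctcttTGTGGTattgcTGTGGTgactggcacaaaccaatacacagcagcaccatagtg
Rab27a, chr9:72937468-72937567: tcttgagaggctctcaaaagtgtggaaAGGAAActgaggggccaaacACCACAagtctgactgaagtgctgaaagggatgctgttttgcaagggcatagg
Cx3cr1, chr9:119964003-119964102: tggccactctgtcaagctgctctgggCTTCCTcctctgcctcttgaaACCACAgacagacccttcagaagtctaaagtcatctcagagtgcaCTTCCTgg
Myh9, chr15:77629222-77629321: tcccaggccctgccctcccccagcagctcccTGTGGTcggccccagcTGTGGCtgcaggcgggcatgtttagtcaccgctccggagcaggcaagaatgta
Inpp4b, chr8:84306727-84306826: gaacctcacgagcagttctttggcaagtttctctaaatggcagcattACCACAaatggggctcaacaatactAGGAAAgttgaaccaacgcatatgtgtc
Rapgef1, chr2:29524639-29524738: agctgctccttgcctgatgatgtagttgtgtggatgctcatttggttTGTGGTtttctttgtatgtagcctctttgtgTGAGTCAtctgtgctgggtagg
Bcl11b, chr12:109202935-109203034: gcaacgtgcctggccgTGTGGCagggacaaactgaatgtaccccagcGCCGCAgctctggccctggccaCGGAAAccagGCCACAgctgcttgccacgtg

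The stretch from Vav3, a guanine nucleotide exchange factor downstream of the TCR, held 3 RUNX motifs, and that from Slamf1, a costimulatory receptor, held 2 on the same strand. The Vav3 member (chr3:109190186-109190712, 527 bp) lay in intron 1 of 26, 46.4 kb from the nearest start, and was covered whole by an H3K4me1 region from 109190142 to 109191674. The Slamf1 member (chr1:173719531-173719859, 329 bp) lay in intron 4 of 6 and 22.4 kb from a start. In Bach2, a repressor that restrains effector differentiation, the printed stretch held a single RUNX motif, 1 bp from the centre, and 1 ETS motif, in intron 2 of 6 (chr4:32474963-32475267, 305 bp), and the central 200 bp held 2 ETS motifs. The stretches from Rab27a, which is needed for release of lytic granules, and Cx3cr1, a chemokine receptor of effector cells, combined 1 RUNX motif with 1 and 2 ETS motifs, respectively. The Rapgef1 stretch carried the AP-1 motif, and that from Bcl11b, a T-lineage transcription factor, held 3 RUNX motifs around 1 ETS motif. The Bcl11b member (chr12:109202668-109203298) shared 270 bp with H3K4me1. Its printed stretch lay almost wholly beyond the end of that H3K4me1 region, at 109202937. The Il12rb2 and Rab27a members each touched 2 H3K4me1 regions, the other 8 a single one.

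The RUNX motif was frequent and central in the members. It occurred in the central 200 bp of 1143 of 1392 members (82.1%, 80.01 to 84.0%), compared to 29.8% of 2784 windows of the same length placed 2 kb to either side of them (28.2 to 31.6%). Over the whole region, 1305 members (93.75%) held it. In the central window 534 members held 1 motif, 421 held 2, 150 held 3 and 38 held 4 or more, whereas 249 held none. For the 1387 members with a motif in the surrounding sequence searched, the middle of the nearest one lay a median of 40 bp from the centre (quartiles 16 and 77 bp). Among variants, TGTGGT was found in 65.7% of members (flanks 15.9%), TGTGGC in 31.25% (flanks 13.6%), TGCGGT in 8.91% (flanks 1.87%) and TGCGGC in 3.45% (flanks 1.65%). The variant with the highest count in members was thus TGTGGT.

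The bases next to the motif were also uneven. Read in the direction of the motif, T followed it directly in 52.9% of 1120 members whose most central motif had 5 bases on both sides inside the window, compared to 32.7% of motifs in the flanking windows. T was also more frequent at the base after that (39.7%, flanks 29.9%), and C preceded the motif in 40.5% (flanks 34.6%). The same 3 shares were 52.7, 39.0 and 42.1% in marked regions outside genes and 56.3, 38.6 and 39.1% in unmarked regions in genes.

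Other lymphocyte motifs were compared with the same flanks. ETS motifs, bound by factors such as Ets1 and Fli1, were present in 931 members (66.9%, 64.4 to 69.3%; flanks 43.4%). STAT motifs (TTCNNNGAA), bound by factors that act downstream of IL-2, were present in 11.7% (flanks 5.64%). AP-1 motifs, bound by Fos and Jun family dimers and by Batf with Jun, were present in 6.90% (flanks 3.48%), T-box motifs (GGTGTGA), bound by T-bet and Eomes, in 5.46% (flanks 2.91%), and IRF motifs (GAAA repeated on the same strand after 2 bases) in 3.81% (flanks 2.62%). The E-box CAGCTG was found in 14.7% (flanks 8.91%), CAGGTG in 17.03% (flanks 14.0%), the TCF/LEF motif CTTTGA in 18.6% (flanks 13.2%) and the KLF/SP motif GGGCGG in 5.24% (flanks 2.62%). GATA motifs, here AGATAA and the same word with T as its first base, were at 16.9% in members and 18.2% in flanks. NFAT motifs (TGGAAA) were at 15.95 and 17.3%. NFAT and ETS words differ in their first base, so that 1 match cannot be both, while matches of other motifs can overlap by some bases. Over the central windows of all 9135 Runx3-bound regions the shares were 78.8% for RUNX, 66.2% for ETS and 6.50% for AP-1. A CpG was present in 88.9% of members and 81.3% of flanks. These flanks were not matched for base composition, and a match of letters is not evidence of binding.

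**Figure D1:**
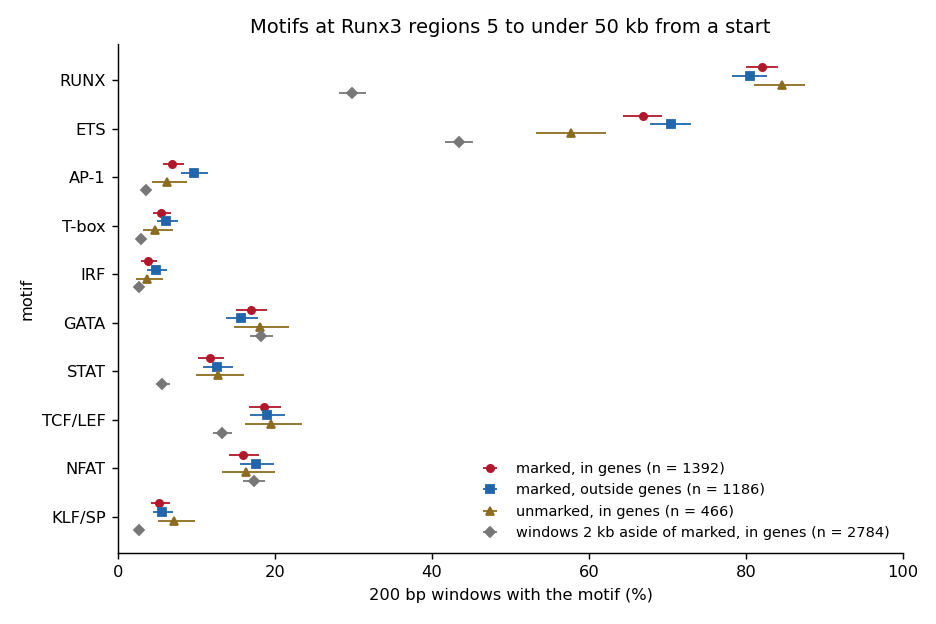
Share of 200 bp windows that hold each motif (x axis, %), for the 1392 marked regions in genes (red), 1186 marked regions outside genes (blue), 466 unmarked regions in genes (brown) and 2784 windows 2 kb aside of the first (grey), with 95% Wilson intervals as bars. RUNX stood at 82.1% against 29.8% in the flanks, and ETS at 66.9% in marked against 57.7% in unmarked regions in genes.

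Members were then compared with the classes of Runx3-bound regions that differ from them by 1 criterion at the same distance, namely 1186 marked regions outside protein-coding genes and 466 unmarked regions inside them. A logistic fit over all 3630 regions of the 4 classes tested 17 motifs in both contrasts, and 1 of the 34 tests (2.94%) passed an adjusted p of 0.05. ETS motifs were more frequent in members than in unmarked regions of genes (66.9 compared to 57.7%, odds ratio 1.48, interval 1.19 to 1.83, n = 1392 and 466 regions, logistic fit, Benjamini-Hochberg adjusted p = 0.0123). This difference was 65.4 compared to 63.3% (odds ratio 1.095, with n = 1169 members, adjusted p = 0.796) when a region counted as marked only if its centre lay in an H3K4me1 region, and 42.6 compared to 37.3% in the central 100 bp (odds ratio 1.245, adjusted p = 0.384). With the centre inside H3K4me1 the single call was KLF/SP instead, at 4.36% in members and 7.98% in unmarked regions of genes (n = 1169 members, odds ratio 0.526, adjusted p = 0.0462). Against marked regions outside genes ETS stood at 66.9 compared to 70.5% (n = 1186, odds ratio 0.846, adjusted p = 0.428). For RUNX the odds ratio was 0.839 against unmarked regions in genes (84.55%, n = 466, interval of the ratio 0.630 to 1.12, adjusted p = 0.805) and 1.11 against marked regions outside genes (80.5%, interval 0.910 to 1.35, adjusted p = 0.805). AP-1 was found in 6.90% of members and 9.61% of marked regions outside genes (odds ratio 0.697, n = 1392 and 1186, interval 0.525 to 0.925), and this did not pass adjustment (adjusted p = 0.210). TGCGGT stood at 8.91% in members and 12.0% in unmarked regions of genes (odds ratio 0.716, n = 1392 and 466, interval 0.512 to 1.00, adjusted p = 0.428).

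Pairs of motifs with a gap of at most 50 bp, a comparison added after the data were examined, were common in members. A second RUNX motif beside the first was found in 432 members (31.0%, flanks 2.41%), an ETS motif beside a RUNX motif in 561 (40.3%, flanks 6.90%) and an AP-1 motif beside a RUNX motif in 60 (4.31%, flanks 0.647%). RUNX pairs were found in 26.4% of marked regions outside genes (odds ratio 1.255, n = 1392 and 1186, interval 1.06 to 1.49, adjusted p = 0.0576 over 6 tests) and 35.6% of unmarked regions in genes (odds ratio 0.813, interval 0.652 to 1.01, adjusted p = 0.2001). ETS with RUNX stood at 43.5 and 40.3% in these classes (n = 1186 and 466, odds ratios 0.877 and 0.998, adjusted p = 0.2001 and 0.987). Of all placements of an ETS motif relative to the most central RUNX motif, the most frequent was on the opposite strand with its start 5 bp before that of RUNX, so that the motifs share 1 base (22 of 1143 members, 1.925%; flanks 0.722%). The next was also on the opposite strand, with its start 5 bp after that of RUNX (18 members, 1.575%, flanks 0.120%). In marked regions outside genes these placements stood at 2.72 and 1.885%, above the members, and in unmarked regions in genes at 0.508 and 1.27%. The median placement among offsets of 6 to 50 bp was found in 3 members. These arrangements were picked for their counts and were not tested.

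By distance from a start, the RUNX share was 84.0% at 5 to under 10 kb from a start (n = 424), 80.6% at 10 to under 20 kb (n = 509), 83.8% at 20 to under 30 kb (n = 222) and 80.6% at 30 to under 50 kb (n = 237), with overlapping intervals. It was 83.9% in intron 1, 80.5% in intron 2 and 81.2% in later introns. The 909 members covered whole by H3K4me1 held RUNX in 85.15% of cases (82.7 to 87.3%) and the 483 covered in part in 76.4% (72.4 to 79.97%), with median widths of 509 and 576 bp. Wider members held more RUNX motifs in all, with a mean of 1.80 per region in the narrowest 25% of members and 3.37 in the widest 25%, while the share with a motif in the central 200 bp was 84.8, 77.65, 85.1 and 80.9% from the narrowest to the widest such group. The 87 members with no RUNX motif anywhere in the region had a median width of 478 bp, and 69 of them (79.3%) held an ETS motif and 9 (10.3%) an AP-1 motif in the central window.

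RUNX motifs lay more often on the coding strand of the host gene than on its template strand. The coding strand is the one read in the direction of transcription. It held the most central RUNX motif in 680 of 1129 members with hosts on 1 strand (60.2%, 57.35 to 63.05%). An exact binomial test, two-sided, against equal shares of both strands gave p = 6.48e-12. Counting every motif of the central window gave 1169 of 1968 (59.4%). In the flanking windows 2 kb away 582 of 995 motifs (58.5%, 55.4 to 61.5%) lay on the coding strand. This share was inside the interval of the members, so the test cannot show a strand preference particular to Runx3-bound regions. In unmarked regions in genes the share was 58.6% (53.7 to 63.4%) at the most central motif and 54.6% in their flanks. Base composition was also uneven between strands, with 27.45% T and 23.6% A on the coding strand of the central windows and 29.1% T and 25.7% A in the flanks. G and C stood at 25.4 and 23.5% in the central windows and at 23.2 and 22.0% in the flanks. The part of base composition in the strand difference was not tested. The most central TGTGGT was on the coding strand in 62.2% (flanks 60.3%), TGTGGC in 52.1% (flanks 57.2%) and ETS in 46.8% (flanks 44.9%).

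**Figure D2:**
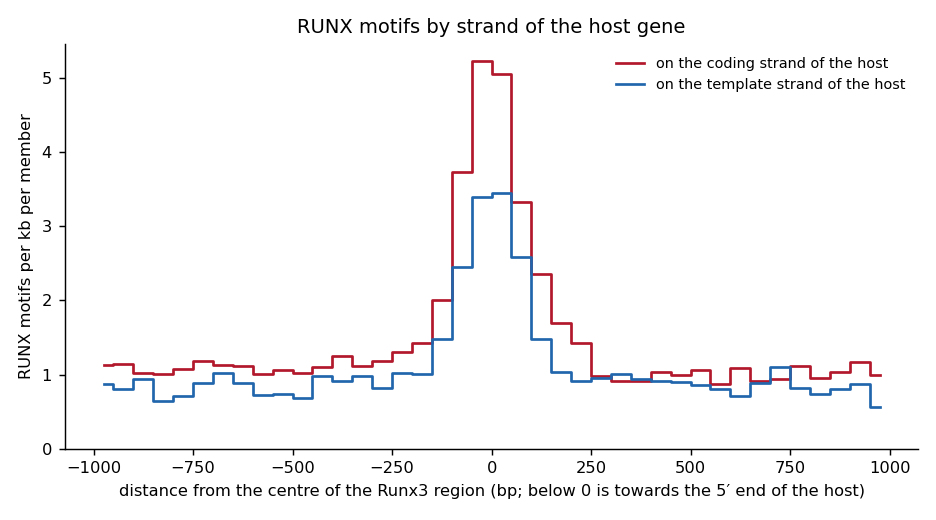
RUNX motifs per kb per member (y axis) in 50 bp steps by distance from the region centre (x axis, bp, in the direction of the host gene), for 1374 members with hosts on 1 strand. The coding strand (red) and the template strand (blue) both peaked within 50 bp of the centre, and the coding strand was also above the template strand in most steps away from it.

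H3K4me1 extended beyond the Runx3-bound region on both sides. The centre was covered in 1169 members (84.0%, 82.0 to 85.8%), a value that the rule raises. The H3K4me1 regions touched by members numbered 1519, with a median width of 1972 bp (quartiles 1400 and 2850 bp), and a covered centre lay a median of 663 bp inside the nearer edge. In 761 of 1169 cases (65.1%) it lay in the central 50% of the H3K4me1 region. Members that touched 2 H3K4me1 regions numbered 183 (13.1%), with a median gap of 104 bp (quartiles 43.5 and 170 bp) between them, and in 72 of these the Runx3 centre fell in the gap. Among marked regions outside genes 12.8% touched 2, and the median width of touched H3K4me1 regions was 1806 bp.

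Cover was higher on the side of the 5′ end of the host. At 2 kb from the centre, 480 of 1374 members (34.9%, 32.5 to 37.5%) were covered upstream and 371 (27%, 24.7 to 29.4%) downstream, 279 being covered upstream alone and 170 downstream alone. Near the centre the sides were closer, with 86.2 and 84.1% at 500 bp and 66.2 and 63.1% at 1 kb, and at 5 kb they were 15.8 and 13.5%. Among 661 members at least 15 kb from the nearest start, cover at 2 kb was 33.4% upstream and 26.3% downstream. Marked regions outside genes, which have no host direction, had 25.9 and 24.0% at 2 kb on the left and right. These profiles are descriptions, since overlap with H3K4me1 chose the members.

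**Figure D3:**
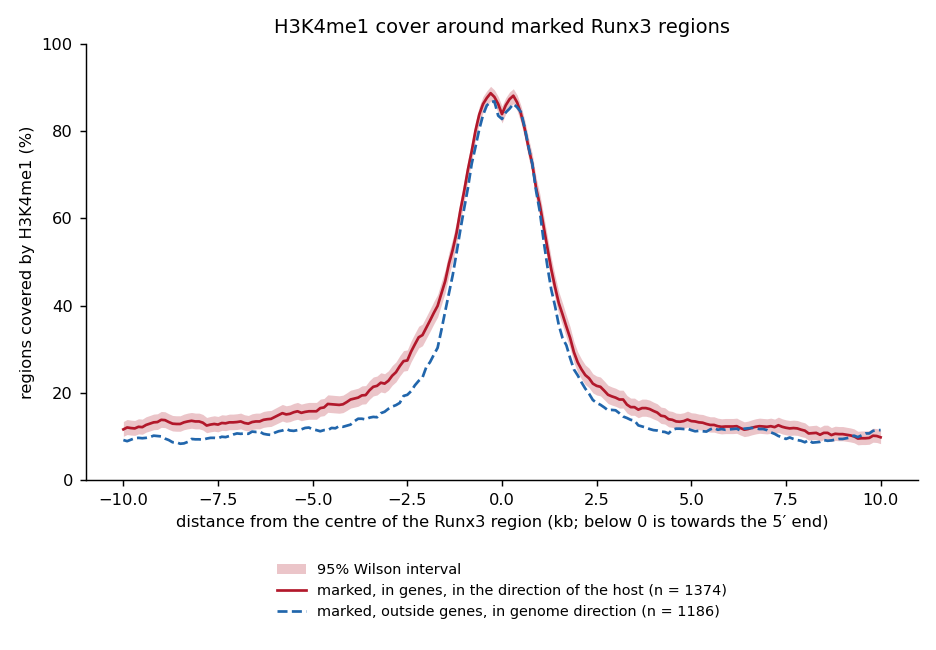
Share of regions covered by a called H3K4me1 region (y axis, %) by distance from the Runx3 centre (x axis, kb), for 1374 members in the direction of the host (red, band: 95% Wilson interval) and 1186 marked regions outside genes in genome direction (blue, dashed). The red curve was higher at 2 kb upstream (34.9%) than at 2 kb downstream (27%).

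Width ranged from 214 to 1677 bp with a median of 529 bp, compared to 542 bp for marked regions outside genes (n = 1392 and 1186, difference of mean log2 width -0.03, interval -0.06 to 0.00, linear fit with robust errors, adjusted p = 0.0996). Unmarked regions in genes had a median of 452 bp, and members exceeded them by 0.23 on the log2 scale (0.19 to 0.28), a description, as a wider region has more chance to touch an H3K4me1 region. This difference was 0.08 when a region counted as marked only if its centre lay in an H3K4me1 region. GC content of the central 200 bp had a mean of 48.9% ± 5.53 (SD over 1392 regions), compared to 48.7% outside genes (n = 1186, adjusted p = 0.326) and 48.25% in unmarked regions (adjusted p = 0.0939). The median distance to the nearest start was 14.5 kb in members, 17.7 kb in marked regions outside genes and 14.9 kb in unmarked regions of genes, given as a description, since the rule used distance.

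The widest member lay in intron 2 of 3 of 1600014C10Rik (chr7:38973419-38975095, 1677 bp, 4 ETS motifs and 1 RUNX motif in the central window). The next lay over coding sequence of the mucin gene Muc4 (chr16:32750046-32751628, 1583 bp, with an AP-1 motif), in intron 2 of Gja5, a gap junction gene (chr3:96807766-96809268, 1503 bp), in intron 2 of Lrrc8a, a volume-regulated anion channel subunit (chr2:30112293-30113758, 1466 bp), and in 2510003E04Rik outside its longest transcript (chr10:62005975-62007379, 1405 bp). The first 4 were covered whole by H3K4me1 and the last for 13.9% of its width.

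At the edges of the rule, the member closest to a start lay in Chd1, 5006 bp away, and the nearest excluded region in Ptpn22 was at 4993 bp. At the far limit a member in Pde11a was 49948 bp and an excluded region in Arhgap26 50012 bp from a start. The smallest overlap was 3 bp, in Mta3, while an unmarked region in Uso1 lay 7 bp from an H3K4me1 region. Only 15 members (1.08%) overlapped by under 50 bp, and 92 of the 466 unmarked regions in genes (19.7%) had an H3K4me1 region within 1 kb of an edge.

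Runx3-bound regions in genes were more often marked than those outside, with 1392 of 1858 (74.9%, 72.9 to 76.8%) compared to 1186 of 1772 (66.9%, 64.7 to 69.1%), given as a description. The sequence that satisfied the position criteria, called eligible here, was 526.6 Mb in protein-coding genes and 667.6 Mb outside. Members were thus found at 2.64 per eligible Mb, compared to 1.78 for marked regions outside genes, whereas unmarked regions stood at 0.885 per Mb in genes and 0.878 outside. Over the autosomes the density of members ranged from 2.01 per Mb on chromosome 3 to 4.08 on chromosome 11. Chromosome X held 3 members in 25.8 eligible Mb (0.116 per Mb), in Elf4, Chic1 and Pir. Densities of the other Runx3-bound regions by chromosome were not compared, so this value is not shown to be particular to members.

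Members were mostly intronic and were spread along the host. The centre fell in an exon of any annotated transcript in 74 members (5.32%) and in coding sequence in 33 (2.37%), compared to 7.73 and 4.29% of unmarked regions in genes. By the longest transcript of the host, 421 of 1359 members (31.0%, 28.6 to 33.5%) were in intron 1, 246 (18.1%, 16.15 to 20.2%) in intron 2, 634 (46.65%, 44.0 to 49.3%) in later introns and 58 (4.27%) in exons, while 33 lay outside that transcript. The eligible sequence divided into 25.1, 14.7, 54.9 and 5.28% in the same order, so that introns 1 and 2 held more of the members, and later introns fewer, than their length. Unmarked regions in genes stood at 28.8, 16.7, 47.6 and 6.93%, with intervals that overlap those of the members. For the 40 members in more than 1 gene, the longest of these genes was taken as the host here. The median member was 48.0% of the way along its host (quartiles 25.3 and 71.6%) and 36.0 kb from the outermost start of that gene. The nearest start was that of a host gene in 978 members (70.3%), of which 734 were downstream and 244 upstream of it, and belonged to another gene in the rest. In 808 (58.0%) it was the start of a protein-coding transcript, and 153 members (10.99%) were 50 kb or more from any such start.

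**Figure D4:**
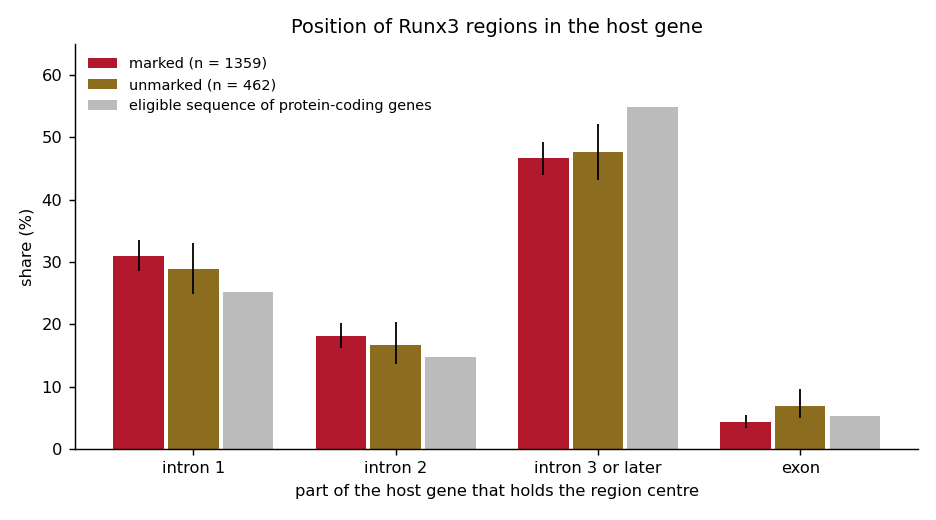
Share of regions (y axis, %) whose centre fell in each part of the longest transcript of the host gene, for 1359 members (red) and 462 unmarked regions in genes (brown), beside the share of eligible sequence (grey), with 95% Wilson intervals as bars. Intron 1 held 31.0% of members and 25.1% of eligible sequence.

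As larger groups were left out, a member could only be single (1002) or 1 of a pair. Of the 1392, 390 (28.0%) had 1 other Runx3-bound region within 10 kb, at a median of 4.15 kb (quartiles 2.09 and 7.18 kb). In 276 of them the partner was also a member, which made 138 pairs, and in 56 pairs both regions lay on 1 H3K4me1 region. Partners were unmarked in 54 cases and under 5 kb from a start in 68. The H3K4me1 regions touched by paired members had a median length of 2828 bp in sum, compared to 2087 bp for single members, and the RUNX share was 81.3% in pairs and 82.4% in single members.

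The members fell in 1059 of 14356 eligible protein-coding genes (7.38%), that is genes with at least 1 eligible base. Of these, 799 held 1 member, 194 held 2, 44 held 3 and 22 held 4 or more, and 40 members lay in more than 1 gene at once. Long genes offer more room, and the share rose from 1.19% of genes with under 10 kb of eligible sequence to 5.215% at 10 to under 30 kb, 10.9% at 30 to under 60 kb and 19.7% at 60 kb or more. Host genes had a median of 54.0 kb of eligible sequence, compared to 17.8 kb over all eligible genes. A Runx3-bound region within 1 kb of a start of the gene itself was found for 182 host genes (17.2%, 15.0 to 19.6%) and 10.7% of eligible genes without a member, and an H3K4me1 region for 25.6% (23.05 to 28.3%) and 9.99%. Among genes with at least 10 kb of eligible sequence the values were 17.5 and 10.6% for Runx3 and 25.65 and 9.02% for H3K4me1.

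Genes of T cell function were read against these backgrounds, as descriptions. Of the 12 gene lists, 9 cover T cell and general functions. Over these 9 lists, genes with 60 kb or more of eligible sequence held a member in 49 of 80 cases (61.25%), those with 30 to under 60 kb in 24 of 58 (41.4%), those with 10 to under 30 kb in 13 of 71 (18.3%) and shorter ones in 2 of 49 (4.08%), each above the share of all genes of that length. Of 27 neuronal genes, with a median of 135 kb of eligible sequence, 0 held a member (Wilson interval up to 12.5%), compared to 19.7% of all genes with 60 kb or more. Of 17 hepatocyte genes, with a median of 26.3 kb, 0 did (up to 18.4%), a range that includes the 5.215% of all genes with 10 to under 30 kb. Of 14 B cell and myeloid genes, with a median of 33.2 kb, 2 did (14.3%, 4.01 to 39.9%), a range that includes the 10.9% of all genes with 30 to under 60 kb. The genes of the lists were chosen with earlier results of these data known and were not tested.

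**Figure D5:**
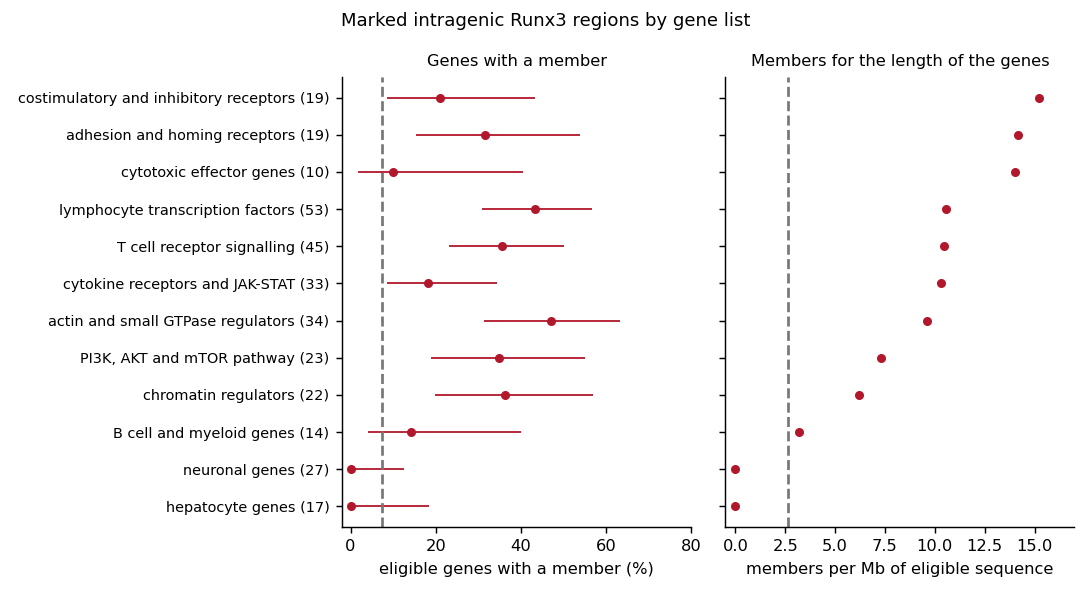
For each gene list (number of eligible genes in brackets), the share of eligible genes with a member (left, %, bars: 95% Wilson intervals) and the members per Mb of eligible sequence (right), with dashed lines at the values over all eligible genes (7.38%) and all eligible sequence in genes (2.64 per Mb). Densities ran from 0 for neuronal and hepatocyte genes to 15.2 for costimulatory and inhibitory receptors.

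TCR signalling genes held 24 members in 16 of 45 eligible genes (35.6%, 23.2 to 50.2%), compared to 7.38% of all eligible genes. Their density was 10.5 per eligible Mb, compared to 2.64 over all eligible sequence in genes. Their median was 40.3 kb of eligible sequence, and 10.9% of all genes with 30 to under 60 kb held a member. Cblb, a ubiquitin ligase that restrains TCR signalling, held 5, in introns 2, 3, 3, 4 and 17 of 17, with widths of 312 to 469 bp and H3K4me1 over 28.45 to 100% of the region. A RUNX motif was central in 3 of the 5. Fyn, a Src family kinase, held 3 (chr10:39122098-39122767, chr10:39192006-39192433 and chr10:39199108-39199695), the last 2 covered whole by different H3K4me1 regions of 5241 and 5143 bp. Prkcq, the protein kinase C that links the TCR to NF-kB, and Ubash3b, a phosphatase that damps TCR signalling, held 2 each, all in intron 1. Among genes with 1 member were Cd247, Cd6, Grap2, Itpkb, Lcp2, Nfatc1, Nfatc2, Ptprc, Vav1, Vav3 and Zap70.

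Among 53 eligible lymphocyte transcription factor genes, 23 held 36 members (43.4%, 30.95 to 56.7%, all eligible genes 7.38%). Their density was 10.55 per Mb (all genes 2.64). Their median was 45 kb of eligible sequence, and 10.9% of all genes with 30 to under 60 kb held a member. Ikzf1, which encodes Ikaros, held 4, of which 3 lay in intron 3 of 7 (chr11:11615798-11616459, chr11:11625962-11626411 and chr11:11641578-11642192) and 1 in intron 7, where it was 35.1 kb from a start of the neighbour Fignl1. The first of these held 2 RUNX motifs and an AP-1 motif in its centre, the second held none of the RUNX, ETS and AP-1 motifs in its centre and 1 RUNX motif elsewhere in the region. Bach2 held 3 members, in introns 1, 2 and 3, all covered whole and all with a central RUNX motif. Runx1, the gene of another RUNX protein, held 3 (chr16:92621138-92621795, chr16:92786980-92787458 and chr16:92801633-92802301), each with RUNX and ETS motifs in the centre, 2 of them in intron 2. Ski, a repressor in TGF-beta signalling, held 3 in intron 1, again each with both motifs. Ets1, Rora, Runx2 and Tcf12 held 2 each, and among genes with 1 were Bcl11b, Foxp1, Ikzf3, Lef1, Prdm1 and Tox.

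Cytokine receptor and JAK-STAT genes held 9 members in 6 of 33 eligible genes (18.2%, 8.61 to 34.4%, all eligible genes 7.38%). Their density was 10.3 per Mb (all genes 2.64). Il6ra, the ligand-binding chain of the IL-6 receptor, held 3. One was centred on a non-coding part of an exon (chr3:89673278-89673873) and had 4 RUNX motifs and 1 ETS motif in the centre, and the others lay in introns 3 and 1. Jak1, a kinase shared by many cytokine receptors including that of IL-2, held 2, in introns 8 and 1 of 24, both covered whole. Ifngr1, a chain of the interferon gamma receptor, had 1 in intron 2 with 2 RUNX motifs, and Il12rb2, of the IL-12 receptor, 1 in intron 7. Stat4 and Stat5b, which transmit IL-12 and IL-2 signals, had 1 each.

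Costimulatory and inhibitory receptor genes held members in 4 of 19 eligible genes (21.1%, 8.51 to 43.3%, all eligible genes 7.38%). Their 7 members stood at 15.2 per Mb (all genes 2.64). Tnfrsf1b, which encodes TNF receptor 2, held 3, at 25.3, 10.8 and 6.08 kb from a start, with 3, 2 and 1 RUNX motifs in the centre and all covered whole. Slamf1 held 2 and Slamf7 1, the latter 5.23 kb from its start with 60.8% of its width covered. Cd226, an activating receptor, held 1 in intron 3 with 2 RUNX motifs. Of 24 cytotoxic effector genes 10 were eligible, and only Rab27a held members (10%, 1.79 to 40.4%). This range includes the 7.38% of all eligible genes. It also includes the 5.215% of genes with 10 to under 30 kb of eligible sequence, but not the 1.19% of shorter ones. The density of this list was 14.0 per Mb (all genes 2.64), which rests on this single gene. Rab27a held 2 members, one with 3 ETS motifs and the other with 2 RUNX and 2 ETS motifs in the centre. Most of these effector genes are short, with a median of 9.81 kb of eligible sequence.

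Adhesion and homing genes held 8 members in 6 of 19 eligible genes (31.6%, 15.4 to 54.0%, all eligible genes 7.38%). Their density was 14.2 per Mb (all genes 2.64). Itga2 and Itgae, integrin alpha chains that bind collagen and E-cadherin, held 2 each, and each of these 4 held 2 RUNX motifs in the centre. One Itgae member (chr11:72909074-72909399, 326 bp) lay in intron 1, 5.15 kb from the start, and held an AP-1 motif as well. Ccr9, the gut homing receptor, held 1, as did Cx3cr1 and Itga4.

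Regulators of actin and small GTPases held 30 members in 16 of 34 eligible genes (47.1%, 31.45 to 63.3%, all eligible genes 7.38%). This was the highest share among the lists, but its interval overlaps that of lymphocyte transcription factors. The list was also chosen with earlier results of these data known. Its genes are long (median 63.4 kb) and stood at 9.63 members per Mb. Of all genes with 60 kb or more of eligible sequence, 19.7% held a member. Dock10, a guanine nucleotide exchange factor, held 5 in introns 1 and 2 of 56, each covered whole. Arhgef3 held 4, of which the widest (1036 bp) held none of the RUNX, ETS and AP-1 motifs in its centre and the most 3′ was centred on a non-coding part of an exon. Sipa1l1, which encodes a GTPase-activating protein that switches Rap off, held 4, all with a central RUNX motif. Rapgef1, an exchange factor for Rap1, held 3, of which 2 were adjacent (chr2:29487562-29487870 and chr2:29487929-29488224) and shared a single H3K4me1 region of 1820 bp.

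PI3K pathway genes held 12 members in 8 of 23 eligible genes (34.8%, 18.8 to 55.1%, all eligible genes 7.38%). Their density was 7.32 per Mb (all genes 2.64). Their median was 55.6 kb of eligible sequence, and 10.9% of all genes with 30 to under 60 kb held a member. Inpp4a, a lipid phosphatase, Pik3ap1, an adaptor, and the regulatory subunits Pik3r1 and Pik3r5 held 2 each. Those in Pik3r5 (chr11:68277711-68278107 and chr11:68278412-68279005) shared an H3K4me1 region of 5619 bp. Chromatin regulator genes held 11 in 8 of 22 (36.4%, 19.7 to 57.05%, all eligible genes 7.38%), at 6.19 per Mb. Their median was 65.5 kb of eligible sequence. Of all genes with 60 kb or more, 19.7% held a member, about the lower limit of this interval. Chd7, a chromatin remodeller, held 3, one of them with 3 RUNX and 3 ETS motifs in the centre, Tet3, a methylcytosine oxidase, held 2, and Arid1b and Hdac4 were among those with 1. In the B cell and myeloid list the kinase gene Blk and the B cell factor gene Pax5 held 1 each, and both held 2 RUNX motifs in the centre.

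Genes with the most members were long and of varied role. Clec16a, Ppm1h and Ubac2 held 6 each, and Cblb, Dock10, Ptprj and St8sia1 5 each. In Clec16a, which takes part in autophagy, all 6 lay in introns 17 to 21 of 22 within 91.6 kb, each touching 2292 to 7599 bp of H3K4me1 in 1 or 2 regions, and 5 had a central RUNX motif. In Ppm1h, a phosphatase gene, 3 of 6 were in intron 1 of 9. In Ubac2 all 6 held a RUNX motif, and in 4 the nearest start was that of Gpr18 or of Gpr183, which encodes an oxysterol receptor. Ptprj, a receptor phosphatase, held 5 members of which 2 shared an H3K4me1 region of 7390 bp. St8sia1, a ganglioside synthase gene, held 5, each with an ETS motif and 4 with RUNX. Gm20388 (15 members) and Fgfr2 (5) have annotated bodies of 4435 and 3009 kb that span other genes, and 11 of the 15 and 3 of the 5 members lay also in a gene such as Ankrd11, Galnt2 or Ate1. Counts for these 2 genes depend on where the annotation ends them. The same holds for the intron number, place along the host and distance to its outermost start of these members.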

How the data were processed

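ChIP-seq was done with anti-Runx3 antibody (2 libraries), NIS (2) and anti-H3K4me1 antibody (1). Per the paper's methods, the authors aligned reads to mm9 with ELAND, kept unique reads, joined repeats and called peaks with MACS against joined NIS reads, scaling the larger read set to the smaller. The deposited lists give positions in bp (other units, such as a score, and read numbers per region are not in the 2 lists used here), so width stood in for a stricter threshold. Depth and replicate error per region are therefore unknown, and joining and scaling can change which weak regions were called.

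Regions were classed by GENCODE vM1 starts and protein-coding bodies and by H3K4me1 overlap of at least 1 bp. Motifs were searched on both strands of NCBIM37 (mm9) in the central 200 bp. Class differences were fitted with statsmodels 0.14.6 (logistic, or linear with robust errors) with Benjamini-Hochberg adjustment, and strand by SciPy 1.17.1 (exact binomial test). Intervals are 95% Wilson intervals and cover counting error only. The fits were tested on simulated data. The genes named are the 10 with the most members, up to 4 per gene list, the 5 widest members, those at the limits of the rule and those whose sequence is printed; other genes with a member in the T cell lists were named after their values were seen. Members and gene lists were chosen with earlier results of these data known. Alternatives changed the overlap, window, starts, covariates, chromosomes and groups left out. A few genes that the naming rule would include are not reported here.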

Additional observations from a re-analysis of the deposited data

How the results depend on the processing

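No paired analysis was possible because the lists were called on joined repeats, and for the same reason no library could be left out. The number of members was 1392, and 1169 to 1618 under other definitions of overlap, start, group or gene body (the limit on bodies was chosen after seeing the data), but 734 among regions at least as wide as the median of the Runx3 list. Of 34 motif tests 1 passed, compared to 0 in the central 100 bp and 4 over the whole region. With the centre inside H3K4me1 it was again 1, but KLF/SP (odds ratio 0.526 against unmarked regions in genes) in place of ETS. With the centre inside H3K4me1, 4 instead of 2 of the 6 fits of width, GC content and distance passed (the 2 being width against unmarked regions and distance against marked regions outside genes, both measures that the rule touches), and the width difference from unmarked regions was 0.08 instead of 0.23 on the log2 scale. The cause of these changes was not tested. The share of genes with a member was 7.38%, compared to 10.8% for genes with at least 10 kb of eligible sequence and 7.97% with groups kept. Odds ratios that had not passed changed direction in 4 cases, namely RUNX against marked regions outside genes over the whole region (1.11 to 0.941), RUNX against unmarked regions in genes over the whole region (0.839 to 1.22) and with the centre inside H3K4me1 (to 1.15), and AP-1 against unmarked regions in genes in the central 100 bp (1.12 to 0.964). Read depth per region is unknown, so a missing H3K4me1 region does not show that the mark is absent. Per the paper's methods, fewer aligned reads were kept for both antibodies and NIS in these cells than in resting (freshly isolated) CD8-TC.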
